A study of Mus musculus with 6 samples.

Results

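The CYP4 fatty acid hydroxylases were followed in liver tissue of 6 mice. They were taken as 9 genes: Cyp4a10, Cyp4a12a, Cyp4a12b, Cyp4a14 and Cyp4a31 of the Cyp4a subfamily, Cyp4f13, Cyp4f14 and Cyp4f15 of the Cyp4f subfamily, and Cyp4v3. A gene was read from a probe set whose annotation gave exactly 1 symbol, and where a gene had several such probe sets the one with the highest mean over the 6 arrays was used. By this rule 8 of the 9 genes were measured, among 22180 genes in all. Cyp4a10 had no probe set of its own and was read only by probe sets that it shares with Cyp4a31 or with Cyp4a32.

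CYP4 enzymes are cytochrome P450 monooxygenases of the endoplasmic reticulum that place a hydroxyl group at or near the methyl end of a fatty acid, the omega position. In liver this opens the route to dicarboxylic acids, which peroxisomes shorten, and it also acts on arachidonic acid and leukotrienes. Cyp4a10 and Cyp4a14 are textbook targets of the fatty acid receptor PPARA. The Cyp4a12 genes are known for male-biased expression in mouse liver and kidney, Cyp4f14 and other Cyp4f enzymes for the omega-hydroxylation of leukotrienes and tocopherols, and Cyp4v3 is the mouse counterpart of human CYP4V2, a fatty acid hydroxylase linked to a crystalline retinal dystrophy.

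The 3 controls were wild-type C57BL/6J mice. The 3 ErbB4-/- mice lacked the receptor tyrosine kinase ErbB4 and were kept alive by a transgene that supplies ErbB4 in the heart (ErbB4-/-HER4heart), on a C57BL/6J background reached by backcrossing. All 6 mice had received 1 dose of DEN, the usual abbreviation of the liver carcinogen diethylnitrosamine, on postnatal day 14, so no liver here was untreated. The protocol gives 32 weeks to dissection for every mouse, whereas the sample characteristics count up, with 32, 33 and 34 weeks among the controls and 35, 36 and 37 weeks among the ErbB4-/- mice. The controls are labelled wild type, so the presence of the heart transgene and the loss of ErbB4 cannot be told apart. The design text calls the mice biological replicates, each was read on 1 Affymetrix whole-transcript array, and the labels do not give their sex. The 3 values of a group are printed in the order of the replicate numbers. They are log2 signals as deposited, comparable between arrays for 1 gene and not between genes. In whole tissue, fewer cells of a type and less RNA per cell cannot be told apart.

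The arrays had medians of 4.83 to 4.86, and over all probe sets any pair of them correlated at 0.975 to 0.986. In a principal component analysis ErbB4-/- replicate 3 stood apart on the component with 36.1% of the variance, and control replicate 1 on the next one with 25.8%, so the members and lists that rest on these arrays are given with and without them. In limma with Benjamini-Hochberg adjustment over the 22180 genes, 1 gene passed an adjusted p of 0.05 between the groups, which is 0.00451% of all genes. It is Clca3a1, no CYP4 gene. The median of 11 measured hepatocyte markers gave a difference of -0.02, with list means of 13.24 to 13.32 on all 6 arrays, while 9 measured kidney markers had list means of 4.30 to 4.42 and 6 pancreas acinar markers a highest list mean of 4.39.

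Promoter sequences are shown for every member that had an entry among the RefSeq (GRCm38.p6) promoters used here. These were 4 of the 9 genes: the 3 Cyp4f genes, neighbours on chromosome 17, and Cyp4v3 on another chromosome. Cyp4a10, Cyp4a12a, Cyp4a12b, Cyp4a14 and Cyp4a31 had no entry there, so the choice does not rest on expression. Each line holds the 100 bases before the outermost annotated start, 5′ to 3′ on the gene's own strand. Cyp4f13 lies on the minus strand at chr17:32947416-32947515, Cyp4f14 on the minus strand at chr17:32917377-32917476 (the most upstream of 4 annotated starts), Cyp4f15 on the plus strand at chr17:32685531-32685630 and Cyp4v3 on the minus strand at chr8:45333164-45333263. Capitals mark the 7-base runs GGATTGG and TTGGCTG, which were picked after the sequences were seen because all 3 Cyp4f stretches hold both.
Cyp4f13: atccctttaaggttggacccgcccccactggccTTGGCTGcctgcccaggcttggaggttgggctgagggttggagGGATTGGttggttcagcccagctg
Cyp4f14: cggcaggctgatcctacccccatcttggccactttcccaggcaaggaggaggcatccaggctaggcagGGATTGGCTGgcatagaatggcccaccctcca
Cyp4f15: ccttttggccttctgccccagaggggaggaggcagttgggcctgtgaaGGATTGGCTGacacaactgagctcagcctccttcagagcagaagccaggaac
Cyp4v3: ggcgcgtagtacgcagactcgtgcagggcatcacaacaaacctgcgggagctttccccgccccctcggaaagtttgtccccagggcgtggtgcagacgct

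In Cyp4f14 and Cyp4f15 the GGATTGG and TTGGCTG runs overlap by their shared TTGG, while in Cyp4f13 they stand apart. GGATTGG ended 17, 25 and 45 bases before the start of Cyp4f13, Cyp4f14 and Cyp4f15. Within 250 bases before a start and on either strand, GGATTGG occurred in 4.17% and TTGGCTG in 7.48% of 32851 RefSeq mouse promoters. The direct repeat bound by PPAR and RXR, searched as its usual consensus with 1 base between the half-sites, occurred in 0.338% of promoters and in 0 of the 4 member promoters. The AGGTCA half-site alone, which the repeat can contain, occurred in 14.0% of promoters and in 0 of the 4. The STAT5-type motif TTCNNNGAA occurred in 7.02% of promoters and in 1 of the 4, that of Cyp4f13. These matches describe letters in a window and say nothing on whether a factor binds there.

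Cyp4a12a and Cyp4a12b, close copies of each other on chromosome 4, had the largest differences between the group means of all members, and both shrank when control replicate 1 was left out. Cyp4a12a read 4.09, 9.36 and 8.43 on the control arrays and 8.59, 9.50 and 9.15 on the ErbB4-/- arrays. Control replicate 1 alone was low, 33.2-fold below the median of the other 5 arrays, and the other 2 controls overlapped with the ErbB4-/- arrays. Group means of 7.29 ± 2.81 in controls and 9.08 ± 0.46 in ErbB4-/- mice (SD, n = 3) gave a log2 difference of 1.78 with SE 1.39, a 95% interval of -1.67 to 5.24 and a limma adjusted p of 0.765. Without control replicate 1 the difference was 0.18 with SE 0.41 and a 95% interval of -0.91 to 1.28, and with ErbB4-/- replicate 3 also left out it was 0.15.

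Cyp4a12b gave 5.43, 8.55 and 9.36 on the control arrays and 9.97, 9.36 and 9.38 on the ErbB4-/- arrays. The same control was low, 15.3-fold below the median of the other 5 arrays, and the remaining groups met at 9.36. Group means of 7.78 ± 2.08 and 9.57 ± 0.34 gave a log2 difference of 1.79 with SE 1.03, a 95% interval of -0.76 to 4.35 and a limma adjusted p of 0.760. Without control replicate 1 the difference was 0.61, with a 95% interval of -0.28 to 1.51, and without both arrays it was 0.71. The correlation of Cyp4a12a with Cyp4a12b was 0.91 over 6 arrays and -0.57 over the 5 arrays without control replicate 1, so apart from that array these copies did not run together. Counting both copies, 7 of the 22180 genes lay at least as far below the median of the other arrays on control replicate 1 as Cyp4a12b did. A wider range over the arrays than the 5.40 of Cyp4a12a was found for 5 genes. The members were chosen with the low Cyp4a12 values on this array known, so these ranks are a description and no test. Because the copies are alike in sequence and probe sequences were not analysed here, some signal of each could come from the other.

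Most other male-biased liver genes were low on the same array. Of 20 listed, 19 were measured, and 18 of these had their lowest value on control replicate 1, where 19.8% of all genes were lowest. The mean of the list was 7.96 there and 10.27 to 10.51 on the other 5 arrays. Hsd3b5, a steroid dehydrogenase gene, measured 2.52 on control replicate 1 against 8.70 to 9.88 elsewhere, and Elovl3, a fatty acid elongase gene, 7.22 against 11.38 to 13.30. Of 21 measured female-biased genes, 13 had their highest value on control replicate 1, where 19.2% of all genes were highest, with a list mean of 6.76 there and 5.54 to 5.79 on the other arrays, and the cytochrome gene Cyp2b9 measured 12.59 against 7.84 to 8.46. Genes of the sex chromosomes did not set that array apart. Uty, on the Y chromosome, measured 7.77 on control replicate 1 and 7.43 to 7.73 on the other arrays, Eif2s3y, also on Y, 8.85 against 8.77 to 9.08, and Xist, the RNA of the inactive X chromosome, 3.54 against 3.32 to 3.60.

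Between the groups, all 19 male-biased genes had a higher mean in ErbB4-/- mice, against 54.7% of all genes. Their median difference of 0.59 became -0.03 without control replicate 1. The female-biased genes, 18 with a lower and 3 with a higher mean, had a median of -0.32, which became 0.04 without that array. In limma 0 genes of either list passed, with an unadjusted p under 0.05 for 0 male-biased and 2 female-biased genes. Over all genes, 2.77% had such a p with a higher and 2.94% with a lower mean. The 2 female-biased genes were Cyp3a44 and Cyp2b10, both lower in ErbB4-/- mice without overlap, as 3.81% of all genes were. Higher without overlap were 2 male-biased genes and 1 female-biased gene, against 4.52% of all genes. Cyp3a44 differed by -0.65, or -0.68 without control replicate 1, with a limma adjusted p of 0.549 over all 6 arrays. Cyp2b10 differed by -0.54, or -0.53 without that array, with a limma adjusted p of 0.760 over all 6. Acute phase genes, made by hepatocytes in inflammation, were also highest on control replicate 1 in 14 of 17, against the same 19.2%, with a list mean of 12.40 against 11.33 to 11.96. Neutrophil markers had a list mean of 7.27 there and of 6.96 on control replicate 3, both above the 4.65 to 5.32 of the remaining arrays. The part of these in the low Cyp4a12 values was not tested.

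**Figure D1:**
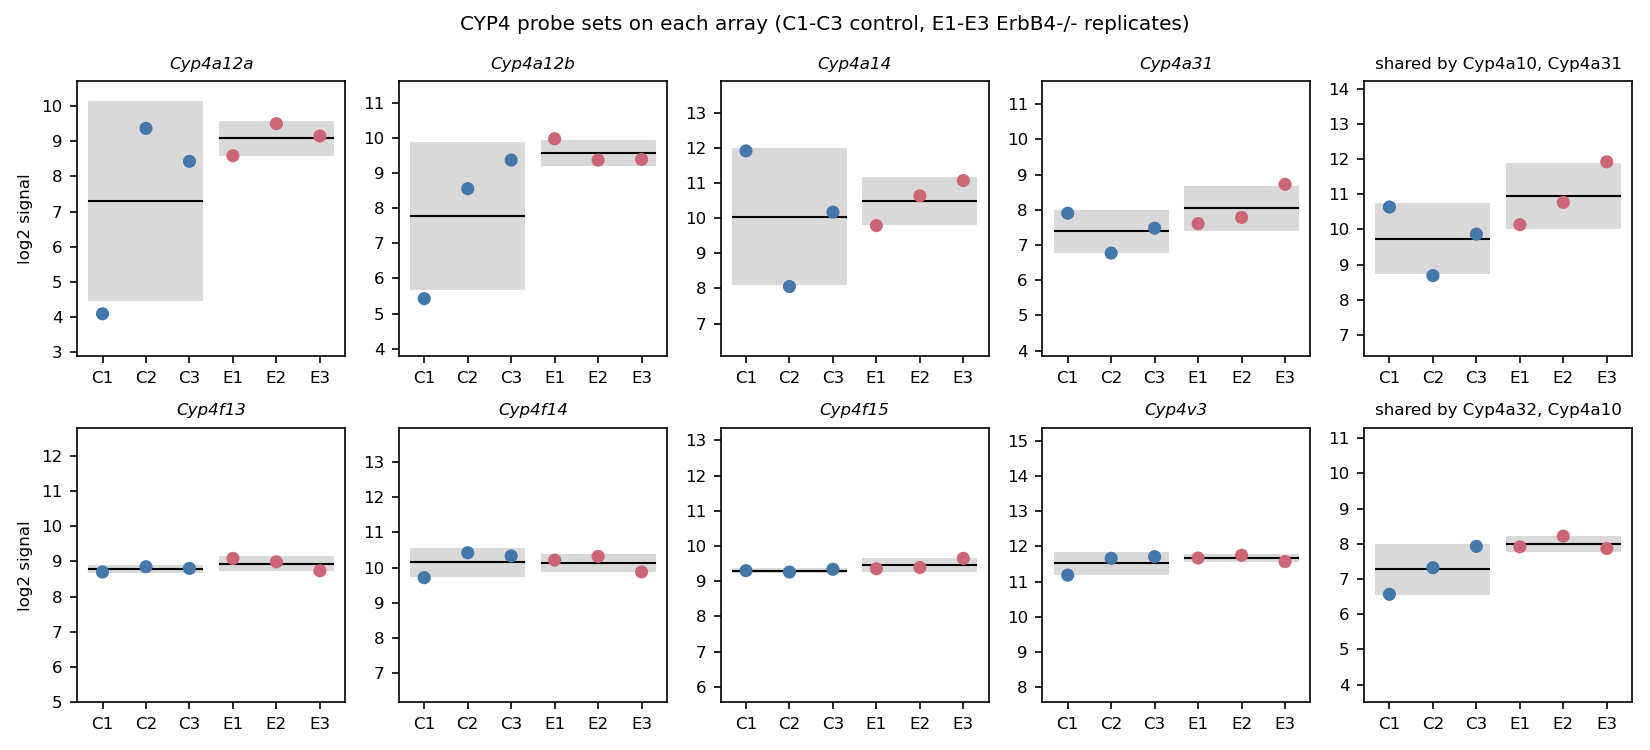
Deposited log2 signal (y axis) of the 8 measured CYP4 genes and of the probe sets that Cyp4a10 shares, on each array (x axis, C1 to C3 control and E1 to E3 ErbB4-/- replicates). Points are arrays, lines group means and grey boxes ± 1 SD (n = 3), and all panels span the same number of log2 units. Cyp4a12a and Cyp4a12b fall to 4.09 and 5.43 on C1, Cyp4a14 runs from 8.06 on C2 to 11.91 on C1, and Cyp4f and Cyp4v3 genes stay within less than 1 log2 unit.

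Cyp4a14, an inducible lauric acid hydroxylase, varied in another order. It gave 11.91, 8.06 and 10.17 on the control arrays and 9.79, 10.63 and 11.07 on the ErbB4-/- arrays. The highest and the lowest of the 6 values were both controls, so the ErbB4-/- arrays lay inside the control range, and 22 of the 22180 genes had a wider range than its 3.85. Group means of 10.05 ± 1.93 and 10.50 ± 0.65 gave a log2 difference of 0.45 with SE 0.99, a 95% interval of -2.02 to 2.92 and a limma adjusted p of 0.898. The difference was 1.38 without control replicate 1, with a 95% interval of -0.68 to 3.45, it was -0.54 without control replicate 2 and 0.17 without ErbB4-/- replicate 3, and 1.10 without control replicate 1 and ErbB4-/- replicate 3. Its sign therefore turned on which control was present.

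Cyp4a31 gave 7.90, 6.77 and 7.48 on the control arrays and 7.61, 7.78 and 8.72 on the ErbB4-/- arrays. As for Cyp4a14, control replicate 2 was the lowest array, whereas the highest was ErbB4-/- replicate 3. Group means of 7.38 ± 0.57 and 8.04 ± 0.60 gave a log2 difference of 0.65 with SE 0.41, a 95% interval of -0.36 to 1.67 and a limma adjusted p of 0.760. The difference was 0.91 without control replicate 1, 0.35 without control replicate 2 and 0.31 without ErbB4-/- replicate 3, and 0.57 without control replicate 1 and ErbB4-/- replicate 3 together. Cyp4a14 and Cyp4a31 ran together over the 6 arrays with a correlation of 0.79, or 0.90 without control replicate 1, given as a description over arrays that share their labelling and normalization.

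Cyp4a10, which lies beside Cyp4a14 in gene order on chromosome 4, can be read only together with a neighbour. The probe set of Cyp4a10 and Cyp4a31 gave 10.63, 8.69 and 9.86 on the control arrays and 10.13, 10.77 and 11.92 on the ErbB4-/- arrays. It had its lowest value on control replicate 2 and its highest on ErbB4-/- replicate 3, as Cyp4a31 did, with a difference of 1.21, SE 0.66 and a limma adjusted p of 0.814 over all probe sets of the table. The probe set of Cyp4a32 and Cyp4a10 gave 6.57, 7.32 and 7.93 on the control arrays and 7.92, 8.22 and 7.87 on the ErbB4-/- arrays, a difference of 0.73 with SE 0.35 and the same adjusted p. Here control replicate 1 was lowest, as for the Cyp4a12 genes. Neither value can be assigned to 1 gene.

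The Cyp4f genes were steadier. Cyp4f13 gave 8.70, 8.85 and 8.80 on the control arrays and 9.08, 8.99 and 8.73 on the ErbB4-/- arrays, with means of 8.78 ± 0.08 and 8.93 ± 0.18, a difference of 0.15, SE 0.10 and a 95% interval of -0.11 to 0.41. Cyp4f14, the leukotriene B hydroxylase gene, gave 9.72, 10.42 and 10.33 on the control arrays and 10.22, 10.32 and 9.88 on the ErbB4-/- arrays, with means of 10.16 ± 0.39 and 10.14 ± 0.23, a difference of -0.02, SE 0.22 and a 95% interval of -0.57 to 0.54. For both genes the groups overlapped, and control replicate 1 held the lowest value, by a far smaller gap than for Cyp4a12a. Cyp4f15 gave 9.30, 9.26 and 9.34 on the control arrays and 9.35, 9.39 and 9.65 on the ErbB4-/- arrays, with means of 9.30 ± 0.04 and 9.46 ± 0.16, a difference of 0.16, SE 0.09, a 95% interval of -0.06 to 0.39 and a limma adjusted p of 0.760. It was the only member whose groups did not overlap, by the gap between 9.34 and 9.35, and 4.52% of all genes were higher without overlap in the same way. No member was lower without overlap (0 of 8), which 3.81% of all genes were. The Cyp4f15 difference was 0.07 without ErbB4-/- replicate 3, and the Cyp4f13 difference 0.08 without ErbB4-/- replicate 1 and 0.25 without ErbB4-/- replicate 3. Without both arrays that stood apart, the differences of Cyp4f13, Cyp4f14 and Cyp4f15 were 0.21, -0.11 and 0.07. Adjusted p values in limma were 0.760 for Cyp4f13 and 0.987 for Cyp4f14.

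Cyp4v3 gave 11.18, 11.66 and 11.71 on the control arrays and 11.67, 11.75 and 11.57 on the ErbB4-/- arrays. Apart from control replicate 1, the 5 arrays lay between 11.57 and 11.75 with the groups mixed. Means of 11.52 ± 0.29 and 11.66 ± 0.09 gave a difference of 0.14 with SE 0.15, a 95% interval of -0.24 to 0.53 and a limma adjusted p of 0.798. The difference was -0.02 without control replicate 1. A probe set shared by Klkb1, the prekallikrein gene, and Cyp4v3 gave a difference of 0.12.

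**Figure D2:**
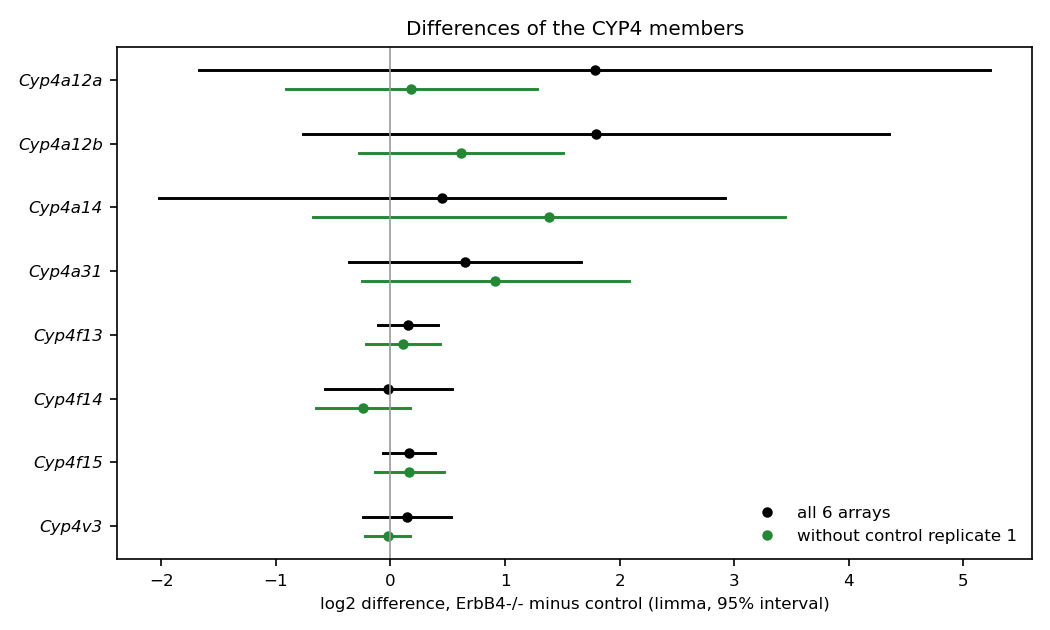
Difference of the group means, ErbB4-/- minus control (x axis, log2), for the 8 measured CYP4 genes (y axis), with 95% intervals from limma over all 6 arrays (black) and over the 5 arrays without control replicate 1 (green). Every interval includes 0, and the Cyp4a12a difference moves from 1.78 to 0.18 when that array is left out.

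Of the 8 measured members, 7 had a higher and 1, Cyp4f14, a lower mean in ErbB4-/- mice, where 54.7% of all genes had a higher mean. No member passed the test: 0 of 8 had an adjusted p under 0.05 in limma, with values from 0.760 to 0.987, and 0 of 8 had an unadjusted p under 0.05, which 2.77% of all genes had with a higher and 2.94% with a lower mean. The median difference of the members was 0.31, against 0.01 over all genes. It was 0.17 without control replicate 1, 0.20 without control replicate 2 and 0.51 without ErbB4-/- replicate 1, and with the week of dissection as a term it was -0.13. The intervals of the Cyp4a genes over all 6 arrays reach beyond a difference of 1, so a difference of that size lies within them, while the median SE over all genes was 0.10. In range over the arrays the members fell into the 4 Cyp4a genes, each at 1 log2 unit or more, and the 3 Cyp4f genes and Cyp4v3, each under 1, where 5.76% of all genes reached 1. With the week of dissection from the characteristic as a further term the members with a higher mean went from 7 to 3, and the Cyp4a12a difference from 1.78 to -1.89. Since every ErbB4-/- mouse was the older by that label, week and genotype are told apart only by the spread of weeks within each group. The labelled weeks rise by 1 from sample to sample across both groups and contradict the protocol, so values with week as a term hold only if these labels are real.

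The other Cyp4 family genes showed no common direction. Of 11 listed, 10 were measured, 5 with a higher and 5 with a lower mean, 0 passed the limma test and 0 had an unadjusted p under 0.05, with a median difference of 0.01. Their values lay between 2.89 and 7.81, and no background signal was used here to say which of them were above it. Cyp4b1, last in the Cyp4a cluster of chromosome 4, gave 7.12, 7.76 and 7.81 on the control arrays and 7.43, 7.15 and 6.37 on the ErbB4-/- arrays, a difference of -0.58 with SE 0.33 that was -0.27 without ErbB4-/- replicate 3 and -0.80 without control replicate 1. Unlike the Cyp4a genes, it was lowest on ErbB4-/- replicate 3. Cyp4f37 and Cyp4x1 gave differences of 0.22 and -0.09. Cyp4f18, known as the neutrophil leukotriene hydroxylase, lay between 5.02 and 5.10 on every array.

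Enzymes that act before and after CYP4 differed in both directions. Of 21 listed redox partners, alcohol and aldehyde dehydrogenases, acyl-CoA synthetases and transporters, 17 were measured, 8 with a higher and 9 with a lower mean. Without overlap 1 was higher and 1 lower, against 4.52% and 3.81% of all genes. In limma 0 passed, and 1 had an unadjusted p under 0.05 with a higher mean, against 2.77% of all genes. This was Aldh3a2, the fatty aldehyde dehydrogenase gene of omega-oxidation, with means of 9.77 ± 0.03 in controls and 10.08 ± 0.17 in ErbB4-/- mice, a difference of 0.32 with SE 0.09, higher without overlap and with a limma adjusted p of 0.760. Slc27a2, a very-long-chain acyl-CoA synthetase and fatty acid transporter, differed by 0.28 with overlap, and Crat, carnitine acetyltransferase, by -0.13 without. The widest difference of the list was -0.66, for the peroxisomal transporter gene Abcd2, which was picked after its value was seen.

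Genes of peroxisomal and mitochondrial fatty acid oxidation lay slightly higher in ErbB4-/- mice, none of them past the test. Of 24 listed, 22 were measured, 21 with a higher mean, against 54.7% of all genes, and the median difference was 0.14. In 6 of 22 the ErbB4-/- arrays were all higher than the controls, against 4.52% of all genes. At an unadjusted p under 0.05 with a higher mean were 5 of 22, against 2.77% of all genes, but 0 passed adjustment in limma. Acaa1b, a peroxisomal thiolase gene, gave 9.57, 10.01 and 9.96 on the control arrays and 10.45, 10.22 and 10.49 on the ErbB4-/- arrays, a difference of 0.54 with SE 0.14. Ehhadh, the peroxisomal bifunctional enzyme gene, gave 9.85, 9.80 and 9.78 on the control arrays and 9.95, 10.01 and 10.41 on the ErbB4-/- arrays, a difference of 0.31 that was 0.17 without ErbB4-/- replicate 3. For both genes the groups did not overlap, with limma adjusted p values of 0.760. Acads, short-chain acyl-CoA dehydrogenase, and Eci1, an enoyl-CoA isomerase, differed by 0.32 and 0.17.

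The array pattern of this list resembled that of Cyp4a31 in its extremes. Of the 22 genes, 18 were highest on ErbB4-/- replicate 3, where 23.6% of all genes were highest, and 10 were lowest on control replicate 2, where 15.9% of all genes were lowest. The median difference was 0.04 without ErbB4-/- replicate 3 and -0.10 with week as a term. Kupffer cell markers, all 12 with a lower mean in ErbB4-/- mice, had list means of 8.57 to 8.86 in controls and 7.38 to 8.17 in ErbB4-/- mice, and all 10 endothelial markers were lower too, with list means of 8.26 to 8.68 and 7.05 to 8.25. Both lists were lowest on ErbB4-/- replicate 3. In limma 0 genes of either list passed, and 10 Kupffer cell and 6 endothelial markers had an unadjusted p under 0.05 with a lower mean, against 2.94% of all genes. The median difference was -0.71 for the Kupffer cell list and -0.79 for the endothelial list, and the latter was -0.39 without ErbB4-/- replicate 3 and -0.11 with week as a term. The part of these cells in the values above was not tested.

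Of 25 other listed PPARA targets 23 were measured, 16 with a higher and 7 with a lower mean, and the median difference was 0.19, or 0.10 without ErbB4-/- replicate 3. In limma 0 passed, and 3 had an unadjusted p under 0.05 with a higher and 1 with a lower mean, against 2.77% and 2.94% of all genes. Vnn1, the pantetheinase gene, chosen after its values were seen, gave 8.29, 6.98 and 7.94 on the control arrays and 8.39, 8.61 and 9.16 on the ErbB4-/- arrays. Control replicate 2 was low and ErbB4-/- replicate 3 high, as for Cyp4a31, and the groups did not overlap, with a difference of 0.98, SE 0.38 and a limma adjusted p of 0.760. Without control replicate 2 the Vnn1 difference was 0.60. Of the 23 measured targets, 7 were highest on ErbB4-/- replicate 3, where 23.6% of all genes were highest. On control replicate 2, 9 were lowest, against 15.9% of all genes, and on control replicate 1, 7 were highest, against 19.2%. Fabp1, the liver fatty acid binding protein gene, and Fitm2, a lipid droplet gene, differed by 0.21 and 0.51. Fgf21, a fasting hormone gene and PPARA target, went the other way at -0.61 with SE 0.22, so members of the list lay on both sides of 0. It was lower without overlap, with a limma adjusted p of 0.760. In the list 3 genes were higher and 1 lower without overlap, against 4.52% and 3.81% of all genes.

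Among 19 measured receptors and regulators of 23 listed, 9 had a higher and 10 a lower mean. Without overlap 3 were higher and 1 lower, against 4.52% and 3.81% of all genes. In limma 0 passed, and 1 had an unadjusted p under 0.05 with a lower mean, against 2.94% of all genes. Ppara itself gave 9.04, 8.60 and 8.86 on the control arrays and 8.84, 8.75 and 9.49 on the ErbB4-/- arrays, a difference of 0.20 with SE 0.23 and a limma adjusted p of 0.808. It too was lowest on control replicate 2 and highest on ErbB4-/- replicate 3, with the groups overlapping. Hnf4a, a hepatocyte nuclear receptor gene, differed by -0.30, Stat5a, a mediator of growth hormone signals, by 0.22 and Ghr, the growth hormone receptor gene, by 0.33 (0.18 without control replicate 1), all 3 without overlap and with limma adjusted p values of 0.760.

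**Figure D3:**
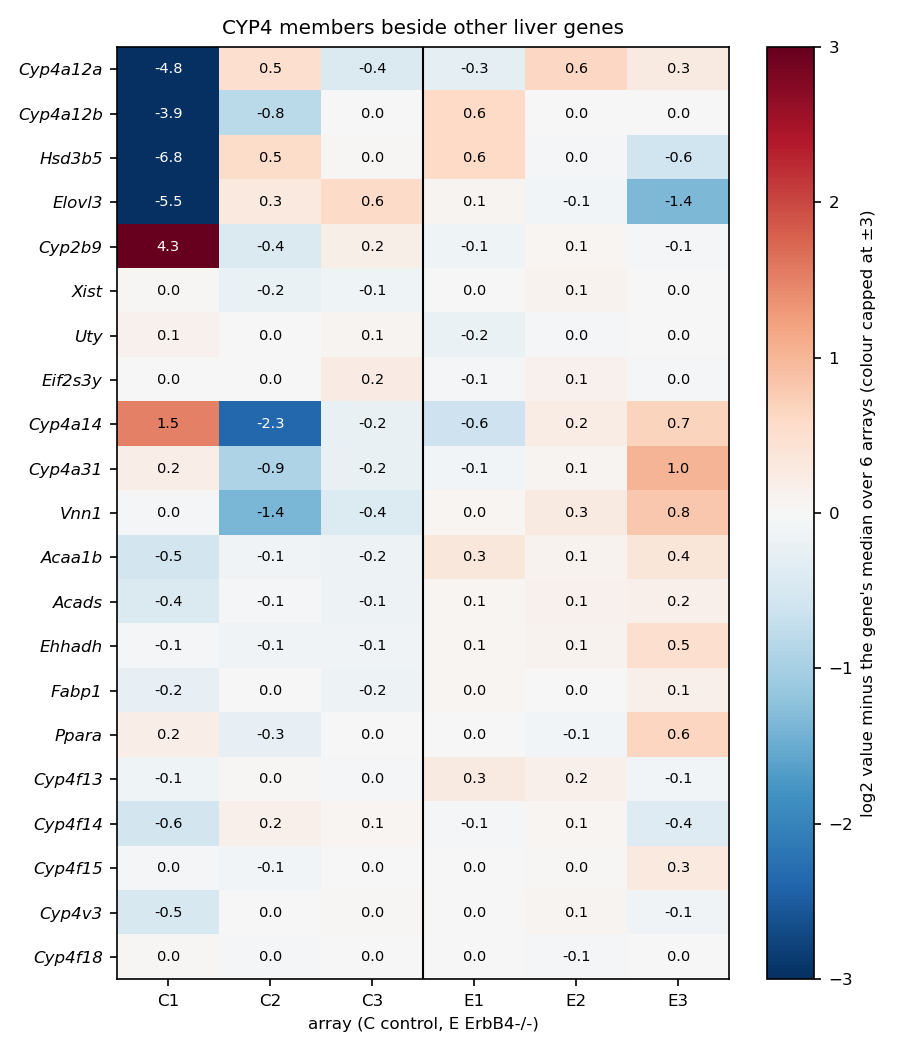
Log2 value minus the gene's median over the 6 arrays (colour, capped at 3 units either way, with the number in each cell) for CYP4 genes and other named genes (rows) on each array (columns, C control and E ErbB4-/-). Cyp4a12a, Cyp4a12b, Hsd3b5 and Elovl3 are low and Cyp2b9 is high on C1, Cyp4a14, Cyp4a31 and Vnn1 are low on C2, and Cyp4f genes stay within 1 unit of 0.

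**Figure D4:**
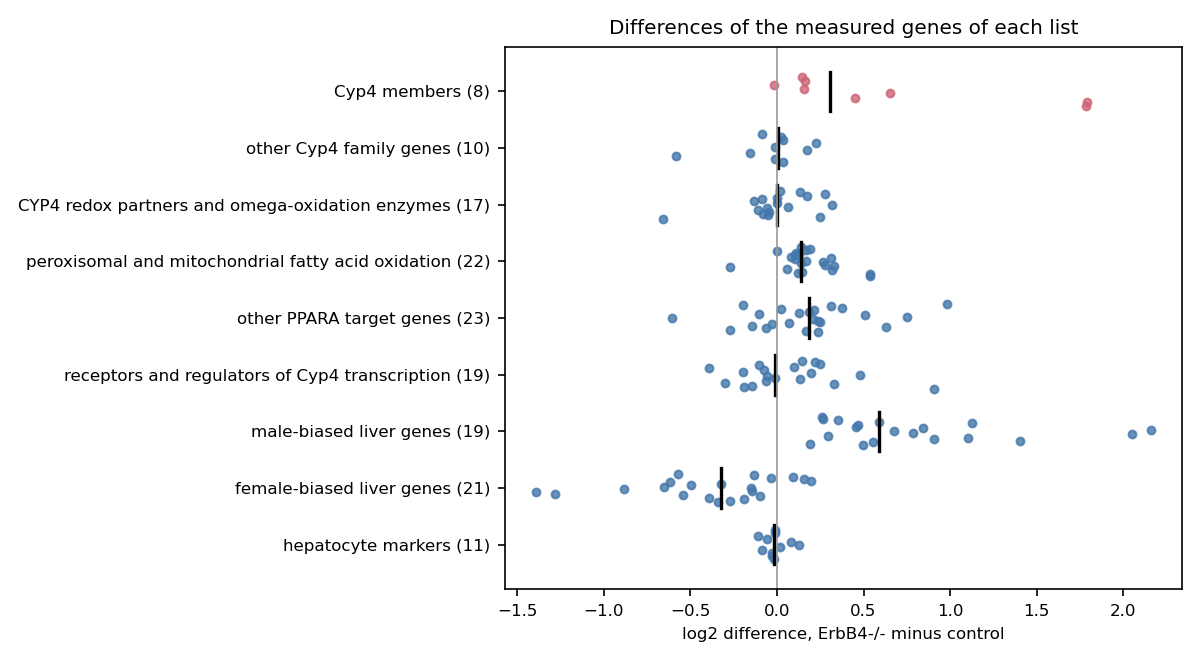
Difference of the group means, ErbB4-/- minus control (x axis, log2), of each measured gene (points) of the CYP4 members and 8 other lists (y axis, number measured in brackets), with the median of each list as a bar. Medians are 0.31 for the members, 0.59 for male-biased and -0.32 for female-biased genes, or 0.17, -0.03 and 0.04 without control replicate 1. The median for fatty acid oxidation is 0.14, or 0.04 without ErbB4-/- replicate 3.

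Genes whose arrays ran most like each Cyp4a gene were sought among 874 genes at or above the median level with a range of at least 1 log2 unit, by Pearson correlation over 6 arrays. For Cyp4a12a these were Sult2a8, a sulfotransferase gene, at 0.98, Mup20, a major urinary protein gene, at 0.98 and Ces3a, a carboxylesterase gene, at 0.98. These 3 rest on control replicate 1, since over the other 5 arrays the correlations were 0.55, 0.63 and 0.47. For Cyp4a12b they were Zfp738 at 0.99, Asic5, an ion channel gene, at 0.99 and Cyp8b1, a sterol hydroxylase gene of bile acid synthesis, at 0.98, and 0.93, 0.95 and 0.80 without that array. The 3 genes listed for each of these 2 copies were different ones. A cut at 3 among such close correlations cannot show that the copies differ in their neighbours.

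For Cyp4a14 the nearest genes were Hsd17b6 at 0.98, Zfp607a at 0.92 and Rdh9 at 0.92, with 0.96, 0.87 and 0.97 without control replicate 1. Hsd17b6 and Rdh9 encode short-chain dehydrogenases that act on steroids and retinoids. Hsd17b6 gave 12.20, 10.86 and 11.59 on the control arrays and 11.55, 11.55 and 11.88 on the ErbB4-/- arrays, with the same highest and lowest arrays as Cyp4a14. For Cyp4a31 the nearest were Pbld1 at 0.99, 1700001L05Rik at 0.97 and Pank1, a pantothenate kinase gene of coenzyme A synthesis, at 0.97, and they stayed at 0.99, 0.98 and 0.97 without control replicate 1. Pank1 gave 11.07, 10.64 and 10.96 on the control arrays and 10.97, 10.95 and 11.65 on the ErbB4-/- arrays. All of these correlations describe 6 arrays that share a normalization, were chosen as the highest of 874 and carry no test.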

How the data were processed

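Total RNA of 6 livers was extracted with Trizol and labelled with Affymetrix kits for whole transcripts, as the labels' protocols say. The authors deposited log2 values, 1 per probe set and array, for 41345 probe sets. Background correction, normalization and the build of the array design are not given in the sources used here, and the log base was taken from the range of the values (1.74 to 14.37). Of the probe sets 23521 carry 1 symbol, 1814 several and 16010 are unnamed here, and symbols checked against RefSeq genes (GRCm38.p6) led to 0 updates. Dim probe sets were kept, and precision is limited by the number of arrays.

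Groups came from the labels. ErbB4-/- was compared with control in limma (version 3.58.1, R 4.3.3; lmFit, then eBayes) by a two-sided test on 1 probe set per gene, with Benjamini-Hochberg adjustment over 22180 genes at 0.05. An exact permutation test of 3 against 3 cannot go below 0.10, so none was run. Same-numbered replicates did not deviate together (correlations of -0.10, 0.03 and -0.05), so numbers were not used as pairs. Members and 20 gene lists (292 entries, 261 measured) were chosen with earlier results of these data known. Named are all members, up to 3 genes of a list with the smallest unadjusted p, genes that define a list, and for members with a range of at least 1 the 3 genes with the highest correlation. Not every list has all 3 named, and Abcd2 and Vnn1 were picked after their values were seen. Alternatives were another quantile normalization, median centring, a filter on genes below the median level, averaging the probe sets of each gene, testing all rows, a robust prior with trend, weights per array, blocking on the replicate number, the week as a term, each array left out in turn, and thresholds of 0.01 and 0.1. A fit without control replicate 1 and without ErbB4-/- replicate 3 was chosen after the data had been seen. Plots were made with matplotlib 3.10.9.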

Additional observations from a re-analysis of the deposited data

How the results depend on the processing

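Of 128 member differences under 16 alternatives, 119 kept their direction and 9 reversed, 5 of these when 1 array was left out. Part of the 119 was fixed in advance. Each member has 1 probe set and lies at or above the median level. Averaging probe sets, testing all rows, the level filter, the robust prior with trend and the replicate block therefore could not change a member's difference. No member was called under any alternative, with a smallest limma adjusted p of 0.658, and the lists kept a count of 0 under each alternative run on them. No kidney marker was left at or above the median level, so that filter gave no value for them. The count over all genes went from 1 to 0 with every row of the table, the replicate block, the week as a term, a threshold of 0.01, both arrays left out, and with any 1 array left out (0 to 0). With the replicate number as a block, each difference stays the same by design, so the 7 members with a higher mean were no check. The block changed no other call. Leaving out 1 array gave 6 to 8 members with a higher mean. With the week as a term, 3 members had a higher mean and the members' median difference was -0.13.

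Reversed with the week were Cyp4a12a (-1.89), Cyp4a12b (-0.72), Cyp4f15 (-0.087), Cyp4v3 (-0.17), Cyp4f18 (0.0072), Slc27a2 (-0.18), Fgf21 (0.24), Fitm2 (-0.17), Ppara (-0.15), Sult5a1 (-0.24), Keg1 (-0.13), Hsd3b5 (-2.17), Elovl3 (-2.37), Cyp2b9 (1.65) and Ephx2 (-0.11). Reversed without both arrays were Hsd3b5 (-0.015), Elovl3 (-0.43) and Cyp2b9 (0.093). With 1 array left out the difference ran from -0.54 to 1.38 for Cyp4a14, -0.24 to 0.11 for Cyp4f14, -0.023 to 0.24 for Cyp4v3, -0.031 to 0.0084 for Cyp4f18, -0.033 to 0.33 for Ppara, -0.30 to 3.35 for Hsd3b5, -0.88 to 2.16 for Elovl3, -2.29 to 0.087 for Cyp2b9 and -0.14 to 0.0067 for Eif2s3y. Without a change of sign it ran from 0.18 to 2.82 for Cyp4a12a, 0.61 to 2.58 for Cyp4a12b, 0.31 to 0.91 for Cyp4a31, 0.08 to 0.25 for Cyp4f13, 0.07 to 0.22 for Cyp4f15, -0.80 to -0.27 for Cyp4b1, 0.10 to 0.34 for Cyp4f37, -0.12 to -0.05 for Cyp4x1, 0.16 to 0.36 for Slc27a2, -0.16 to -0.09 for Crat, 0.21 to 0.40 for Acads, 0.33 to 0.64 for Fitm2 and 0.15 to 0.27 for Stat5a, and for the members' median from 0.17 to 0.51. The cause of each was not tested. No background signal was used here, so how far 4.09 for Cyp4a12a on control replicate 1 lies above background is not known.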

Other observations

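Genes of other cytochromes and of epoxide hydrolases were read on these arrays. Of 14 listed epoxygenases and epoxide hydrolases, 13 were measured, 5 with a higher and 8 with a lower mean in ErbB4-/- mice, with a median difference of -0.09. Without overlap 1 was higher and 2 lower, against 4.52% and 3.81% of all genes. In limma 0 passed, and 1 had an unadjusted p under 0.05 with a lower mean, against 2.94% of all genes. Cyp2j9, an arachidonic acid hydroxylase gene, gave 7.22, 7.36 and 7.49 on the control arrays and 6.19, 6.60 and 6.85 on the ErbB4-/- arrays. The groups did not overlap, with a difference of -0.81, SE 0.18 and a limma adjusted p of 0.760. Ephx2, the soluble epoxide hydrolase gene, differed by 0.27 (0.15 without control replicate 1) and Cyp2c70, a bile acid hydroxylase gene, by -0.14 (-0.08 without ErbB4-/- replicate 3), both without overlap, with limma adjusted p values of 0.760.

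Of 10 listed genes of leukotriene synthesis and reception, which make and sense substrates of the Cyp4f enzymes, 9 were measured, 4 with a higher and 5 with a lower mean. In limma 0 passed, and 2 had an unadjusted p under 0.05 with a lower mean, against 2.94% of all genes. Pla2g4a, cytosolic phospholipase, differed by -0.57 without overlap, and Alox5ap, the lipoxygenase-activating protein gene of myeloid cells, by -0.86 with overlap, at 8.08, 6.95 and 7.68 in controls and 7.01, 6.36 and 6.77 in ErbB4-/- mice. Neutrophil markers ran beside them, with 11 of 11 lower and a median difference of -2.03 that was -1.46 without control replicate 1. In limma 0 of 11 passed, and 9 of 11 had an unadjusted p under 0.05 with a lower mean, against 2.94% of all genes. Cyp4f18, the Cyp4f gene known from neutrophils, differed by -0.01 on the same arrays. It lay at 5.02 to 5.10 on all 6 arrays, under the median gene level of 5.27, and no background signal was used here. Its flat values therefore cannot show whether it followed the neutrophil markers.

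Of 12 listed liver tumour markers 10 were measured, with a median difference of 0.04 and 0 past the test in limma or at an unadjusted p under 0.05. Pericentral and periportal hepatocyte lists, which track the zones in which cytochromes are placed, had means of 10.02 to 10.19 and 10.68 to 10.82 on all 6 arrays.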
